A study of Mus musculus with 2 samples.

Results

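The Hox cluster genes of the embryonic mouse ureter were examined in animals that lacked Rbpj in Tbx18-expressing cells (Rbpj-cKO) and in controls. They were taken as every non-control probe whose gene name on both arrays was Hox, a cluster letter from a to d and a paralogue number, which gave 39 of the 29924 genes on the array, with 45 of its 39429 probes. Most of these genes were detected in ureters of both genotypes, from the anterior groups up to the posterior ones, and most differed little between the genotypes. The highest mean ratios were those of Hoxa13, by the brighter of its probes, and Hoxd13. Both were higher in Rbpj-cKO on both arrays, but far more so in the female than in the male pair. Hoxb9 and Hoxb8 differed most between the pairs. No Hox probe passed the test across the array.

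Hox genes encode homeodomain transcription factors and lie in 4 clusters, within which their order along the chromosome follows their order of expression along the body axis. Genes with the same number in different clusters are paralogues, and those with high numbers act in the caudal trunk, the limbs and the urogenital tract. In the mouse, the genes of group 11 are together required for the formation of the metanephric kidney, and Hoxa13 and Hoxd13 are required for the division of the cloaca and the growth of the genital tubercle.

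The Rbpj-cKO embryos had the genotype Tbx18(cre/+);Rbpj(fl/fl), in which Cre recombinase made from the Tbx18 locus removes Rbpj, the DNA-binding partner of Notch, from the mesenchyme around the ureteric epithelium. That epithelium and other cells without Tbx18 keep the gene. The control embryos were labelled Rbpj(fl/?), with the second allele not stated and no Tbx18 allele listed, so that disruption of 1 Tbx18 copy comes with the Rbpj-cKO genotype alone. All embryos were of the NMRI strain at E14.5, and 150 ng of total RNA of the dissected ureters entered each labelling. RNA of both genotypes was hybridised together on each of 2 arrays read in red and green, on sub-arrays of 1 slide. The male pair had Rbpj-cKO in red and control in green, and the female pair had Rbpj-cKO in green and control in red. Sex and dye orientation therefore cannot be told apart, and the labels give neither the number of embryos per channel nor whether embryos were pooled. The p-values rest only on these 2 arrays, and limma draws the spread of each probe toward that common to all probes.

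A ratio is given as log2 of Rbpj-cKO over control, for the male and then the female pair, and a level as the log2 intensity of a probe in a channel after normalization. Over all 26980 probes that passed the filter on dim spots, the ratios of the arrays ran opposite ways (r = -0.365 across probes, which are not independent). Rbpj itself was lower on both arrays, at -1.13 and -0.63 by its brighter probe and -0.48 and -0.37 by the other, and whether these read the floxed exons was not determined. The female Rbpj-cKO channel carried Y-linked signal. Xist, made from the inactive X chromosome, followed the labels, with levels of 6.22 in male and 12.25 in female Rbpj-cKO, against 6.34 in male and 12.61 in female control. The Y-linked Ddx3y had levels of 12.18 in male and 8.86 in female Rbpj-cKO, against 12.39 in male and 5.88 in female control, and was well above background on 4 of 4 spots in female Rbpj-cKO and 0 in female control. Eif2s3y, also Y-linked, had 12.91 and 9.69 in Rbpj-cKO, against 12.91 and 6.83 in control, with 4 spots flagged in female Rbpj-cKO and 2 in female control. Each result is for this reason given for the male and the female pair separately. In whole ureters, fewer cells of a type and less RNA per cell cannot be told apart.

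Marker genes of the ureter were read in all channels. All 10 markers of the ureteric mesenchyme, among them Tbx18 (levels of 13.62 and 13.35 in Rbpj-cKO, 13.45 and 13.59 in control), and all 12 urothelial markers passed the filter. Their median ratios were -0.07 and 0.04 for the mesenchyme and -0.03 and 0.00 for the urothelium. Passing the filter does not tell the tissue, as 20438 of all 29924 genes and all 12 neural crest and neuron markers also passed.

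Some probes read the coding sequence of the homeodomain itself, which Hox genes share in part, and 3 of them are shown as examples. The capitals mark codons of the homeodomain. In Hoxa13 these are at the start of the second helix. In Hoxc11 they belong to the third helix, which contacts the bases of DNA, and in Hoxd10 they run from the turn before that helix into it. The coordinates, on mm9 as deposited, are chr6:52208980-52209039 (minus strand) for Hoxa13, chr15:102787022-102787081 (plus strand) for Hoxc11 and chr2:74532280-74532339 (plus strand) for Hoxd10.
Hoxa13: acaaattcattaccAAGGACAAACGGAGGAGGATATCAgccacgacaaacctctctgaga
Hoxc11: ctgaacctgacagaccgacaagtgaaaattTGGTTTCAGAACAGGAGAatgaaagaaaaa
Hoxd10: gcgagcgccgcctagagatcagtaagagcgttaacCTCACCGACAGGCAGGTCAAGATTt
The Hoxc11 and Hoxd10 probes cover partly the same codons, and 22 of their 31 aligned bases are identical (71.0%). How far a Hox transcript binds a paralogue's probe was not tested.

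Of the 39 Hox genes, 35 were well above background in male and 36 in female Rbpj-cKO, against 35 in male and 35 in female control. A gene counted as detected where at least 2 of the 4 spots of its brightest probe carried the scanner's flag for a signal well above background. Over all genes on the array, the shares detected were 69.3% and 67.9% in Rbpj-cKO and 70.1% and 67.6% in control. In the Hoxa and Hoxd clusters every gene with a probe was detected in all 4 channels, 11 of 11 and 9 of 9. The exceptions were in the other clusters. Hoxb1, a hindbrain gene, and Hoxc13, which acts in hair and nails, were flagged on 0 spots in every channel. Hoxc12 was flagged on 1 spot in male Rbpj-cKO and 1 in male control, and Hoxb13 on 3 spots in female Rbpj-cKO and on 0 in the other channels. These 4 genes fell short of the filter, as did 1 further probe, the dimmer of a pair, which left 40 probes of 35 genes for the test.

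**Figure D1:**
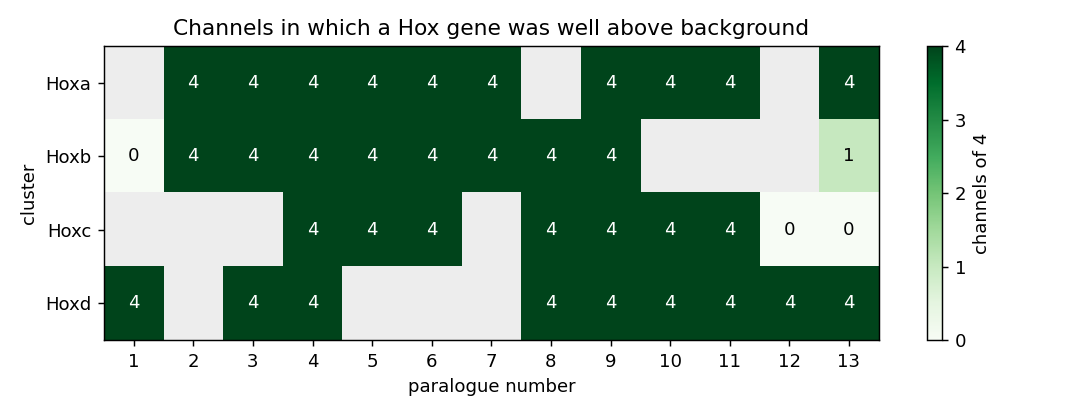
Number of the 4 channels (Rbpj-cKO and control, male and female) in which each Hox gene was well above background, by cluster (rows) and paralogue number (columns); light grey squares are not shown. Every gene shown of the Hoxa and Hoxd clusters stood at 4, and Hoxb13 at 1.

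Among the genes that passed were Hoxa2 to Hoxa7, Hoxa9, Hoxa10, Hoxa11 and Hoxa13 of the first cluster, and Hoxb2 to Hoxb9 of the second. In the remaining clusters they were Hoxc4, Hoxc5, Hoxc6, Hoxc8 to Hoxc11, Hoxd1, Hoxd3, Hoxd4 and Hoxd8 to Hoxd13. All 35 were flagged on 4 of 4 spots in every channel. Their levels ran from 6.85 to 13.89 in male and 6.88 to 13.96 in female Rbpj-cKO, against 6.77 to 13.71 in male and 7.17 to 13.79 in female control. As intensities of different probes are not comparable, no order among genes is read from them.

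The comparison of Rbpj-cKO with control asks which Hox transcripts differed when Rbpj was removed from the ureteric mesenchyme. Limma called 0 of the 40 Hox probes at an adjusted p under 0.05, as it called 0% of all 26980 probes tested. The smallest adjusted p was 0.195 over all probes and 1 over the Hox probes. At an unadjusted limma p under 0.05 there were 2 Hox probes, of Hoxa13 and Hoxd13, while 1.73% of all probes passed that mark. Described by sign alone, 7 Hox genes were higher on both arrays (20% of the 35, against 16% of all genes) and 9 were lower on both (25.7%, against 14.7%). The remaining 19 had opposite signs, as had 14150 of the 20438 genes. The median ratio of the Hox genes was -0.04 in the male and 0.08 in the female pair, beside medians of 0.00 for all genes.

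**Figure D2:**
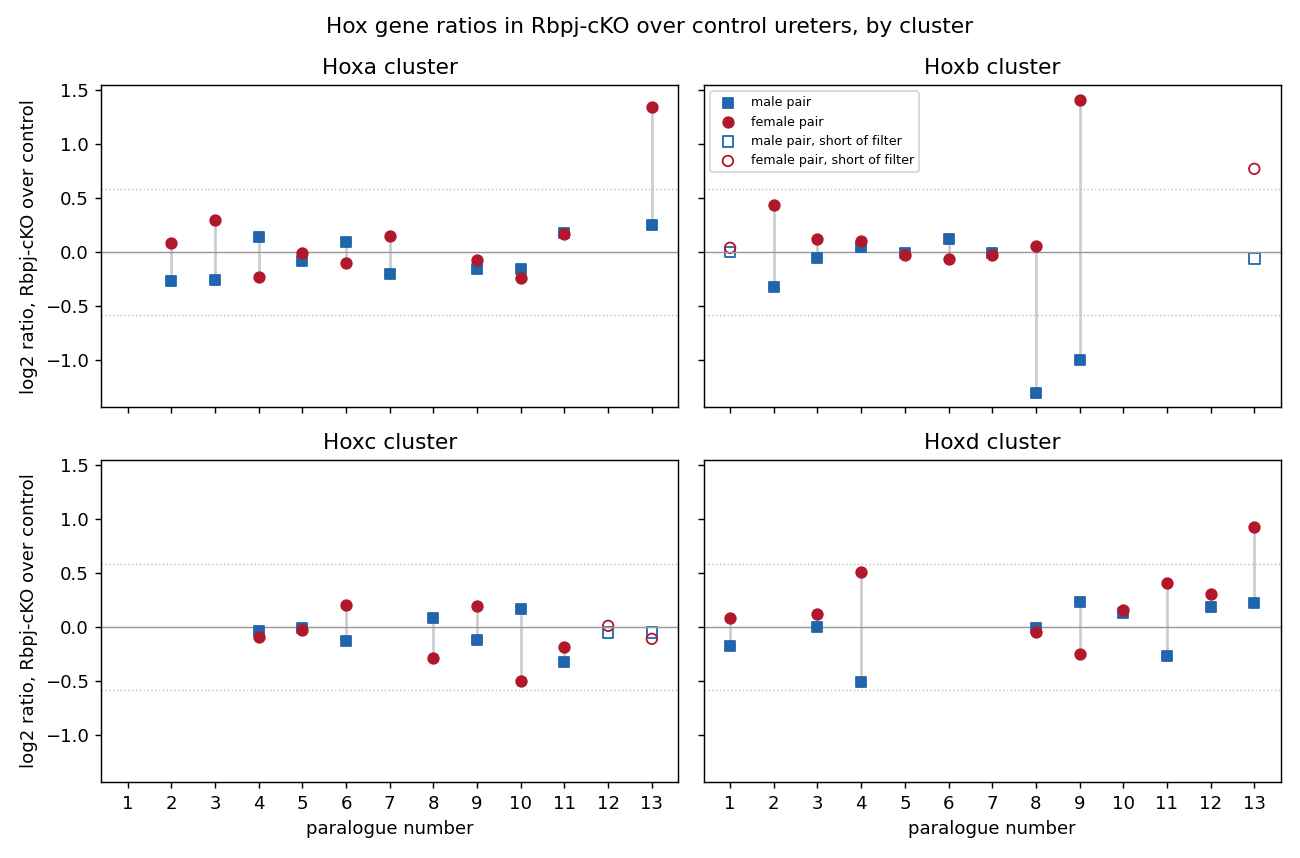
Log2 ratio of Rbpj-cKO over control for Hox genes by paralogue number, 1 panel per cluster, with squares for the male and circles for the female pair, open symbols for genes short of the filter, and dotted lines at 1.5-fold (0.58 either way). Most genes lie inside the dotted lines, while Hoxa13 (1.34), Hoxd13 (0.92), Hoxb9 (1.41) and, short of the filter, Hoxb13 (0.77) lie above them in the female pair and Hoxb8 (-1.30) and Hoxb9 (-1.0) below them in the male pair.

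Large ratios were few. No Hox gene was at least 1.5-fold higher on both arrays (0.132% of all genes were), and none was at least 1.5-fold lower on both (0.0636% of all genes). In the female pair alone, Hoxa13 (by its brighter probe), Hoxb9 and Hoxd13 were at least 1.5-fold higher. They are 8.57% of the Hox genes, against 1.12% of all genes. In the male pair alone, Hoxb8 and Hoxb9 were at least 1.5-fold lower, 5.71% against 0.357%. Hoxb9 was the Hox gene with such differences in opposite directions on the 2 arrays (2.86%, against 0.719% of all genes).

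By the brightest probe of a gene, both Rbpj-cKO levels were above both control levels for 5 Hox genes (14.3%, against 10.3% of all genes). These were Hoxa11, Hoxa13, Hoxb4, Hoxd12 and Hoxd13. Both Rbpj-cKO levels were below for 5 others (14.3%, against 8.45%), namely Hoxa5, Hoxa9, Hoxa10, Hoxc4 and Hoxc11. Some of these gaps were very narrow. The nearest levels of Hoxa5 were 10.91 in female Rbpj-cKO and 10.92 in female control. Those of Hoxb4 were 11.51 in male Rbpj-cKO and 11.47 in female control. For the remaining 25 genes the levels of the genotypes overlapped.

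Hoxa13, a gene of the distal limb, the cloaca and the genital tubercle, had levels of 9.79 in male and 10.34 in female Rbpj-cKO, against 9.55 in male and 9.0 in female control. By this probe, the brighter one, the groups did not overlap, and the gap in the female pair was by far the wider. The ratios were 0.25 and 1.34, or 1.19-fold and 2.54-fold, with a mean of 0.80 ± 0.78 (SD, n = 2; limma adjusted p = 1). The unadjusted limma p was 0.0131, the lowest among the Hox probes. A second Hoxa13 probe, 3′ of the first on the transcript, had 7.71 and 8.26 in Rbpj-cKO against 7.60 and 7.98 in control, with ratios of 0.11 and 0.28. By the second probe the groups overlapped, and the mean ratio over both probes was 0.50. Both probes were higher on both arrays, and the difference between the pairs was 1.10 by the brighter and 0.18 by the dimmer.

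Hoxd13 (probe at mm9 chr2:74509248-74509307), which acts with Hoxa13 in the digits and the urogenital sinus, had levels of 10.37 and 11.03 in Rbpj-cKO, against 10.15 and 10.11 in control. Here too the groups did not overlap and the female Rbpj-cKO channel was the highest. The ratios were 0.22 and 0.92, or 1.16-fold and 1.89-fold, with a mean of 0.57 ± 0.49 (SD, n = 2; limma adjusted p = 1) and an unadjusted limma p of 0.0175. Its neighbour Hoxd12, a gene of the distal limb, had 10.99 and 11.27 in Rbpj-cKO against 10.81 and 10.97 in control, which do not overlap. Its ratios were 0.18 and 0.30, a mean of 0.24 ± 0.09 (SD, n = 2; limma adjusted p = 1).

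Hoxb13, known from the prostate and the tail bud, was at the edge of detection. Its levels were 6.08 and 6.86 in Rbpj-cKO against 6.14 and 6.09 in control, so that female Rbpj-cKO was the channel above background. In the female pair, the 1 array that measured it, Rbpj-cKO was 1.43-fold above the lowest control signal flagged well above background. This is not a lower bound, as the nephron marker Nphs1 had 6.61 in female control with 0 spots flagged. Hoxb13 was not tested. Hoxc13 had -0.05 and -0.11, with no channel above background. The 3 genes of groups 12 and 13 that passed the filter, Hoxd12, Hoxa13 and Hoxd13, had median ratios of 0.22 and 0.92.

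Rbpj protein is known to bind the core TGGGAA, and the sequence before the transcription start was searched for it on both strands in RefSeq promoter windows of GRCm38.p6. Windows were at hand for 22 of the 39 genes. The 250 bases before the start are shown for Hoxa13 and Hoxd13, the genes with the highest mean ratios, with the core in capitals where it occurs. The window of Hoxa13 is chr6:52260881-52261130 (minus strand) and that of Hoxd13 is chr2:74667975-74668224 (plus strand).
Hoxa13: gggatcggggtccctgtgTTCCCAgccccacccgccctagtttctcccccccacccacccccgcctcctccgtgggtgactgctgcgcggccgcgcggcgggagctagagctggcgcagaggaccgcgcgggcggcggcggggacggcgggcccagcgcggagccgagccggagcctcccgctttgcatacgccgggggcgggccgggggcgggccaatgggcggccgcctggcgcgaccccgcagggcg
Hoxd13: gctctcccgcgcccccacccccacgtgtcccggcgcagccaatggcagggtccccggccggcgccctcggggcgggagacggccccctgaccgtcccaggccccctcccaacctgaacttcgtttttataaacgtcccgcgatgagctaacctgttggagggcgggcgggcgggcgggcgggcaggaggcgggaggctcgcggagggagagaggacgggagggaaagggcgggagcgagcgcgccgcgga
The Hoxa13 window held the core once, on the opposite strand with 226 bases between it and the start, and the Hoxd13 window held none. Both are rich in G and C, at 80.0% and 74.4% of bases. Of the 22 Hox genes with a window, 4 held the core (Hoxa6, Hoxa9, Hoxa13 and Hoxd3), which is 18.2%, beside 24.1% of all 27025 genes with a window. A match is only a string of letters, and its absence says only that these letters are not in this window.

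The group 11 genes, which act in the metanephric and ureteric mesenchyme, went different ways. Hoxa11 had levels of 13.89 and 13.96 in Rbpj-cKO, against 13.71 and 13.79 in control, which do not overlap. Its ratios were 0.18 and 0.17, a mean of 0.17 ± 0.01 (SD, n = 2; limma adjusted p = 1), so the arrays differed by less here than for most Hox genes. Hoxc11 had 9.81 and 10.01 in Rbpj-cKO, against 10.13 and 10.21 in control, again with no overlap but with Rbpj-cKO below. Its ratios were -0.32 and -0.19, a mean of -0.26 ± 0.09 (SD, n = 2; limma adjusted p = 1). Hoxd11, needed with Hoxa11 in kidney and forearm, had 12.89 and 13.07 in Rbpj-cKO, against 13.16 and 12.66 in control. The groups overlapped, with ratios of -0.27 and 0.41. Its dimmer probe, which lies 5′ of the brighter one, had 0.19 and -0.14, so that the probes had opposite signs on each array.

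The group 10 genes, known from the lumbar vertebrae and the reproductive tract, differed from one another as well. Hoxa10 had levels of 12.23 and 12.35 in Rbpj-cKO, against 12.39 and 12.60 in control, with Rbpj-cKO below and no overlap. Its ratios were -0.16 and -0.24, a mean of -0.20 ± 0.06 (SD, n = 2; limma adjusted p = 1). Hoxd10 had 11.51 and 11.67 in Rbpj-cKO, against 11.38 and 11.52 in control, which overlap although both ratios, 0.13 and 0.16, were above 0. Hoxc10 had 10.88 and 10.51 in Rbpj-cKO, against 10.71 and 11.01 in control. Its ratios of 0.17 and -0.50 had opposite signs, and the female pair held both its highest and its lowest level.

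**Figure D3:**
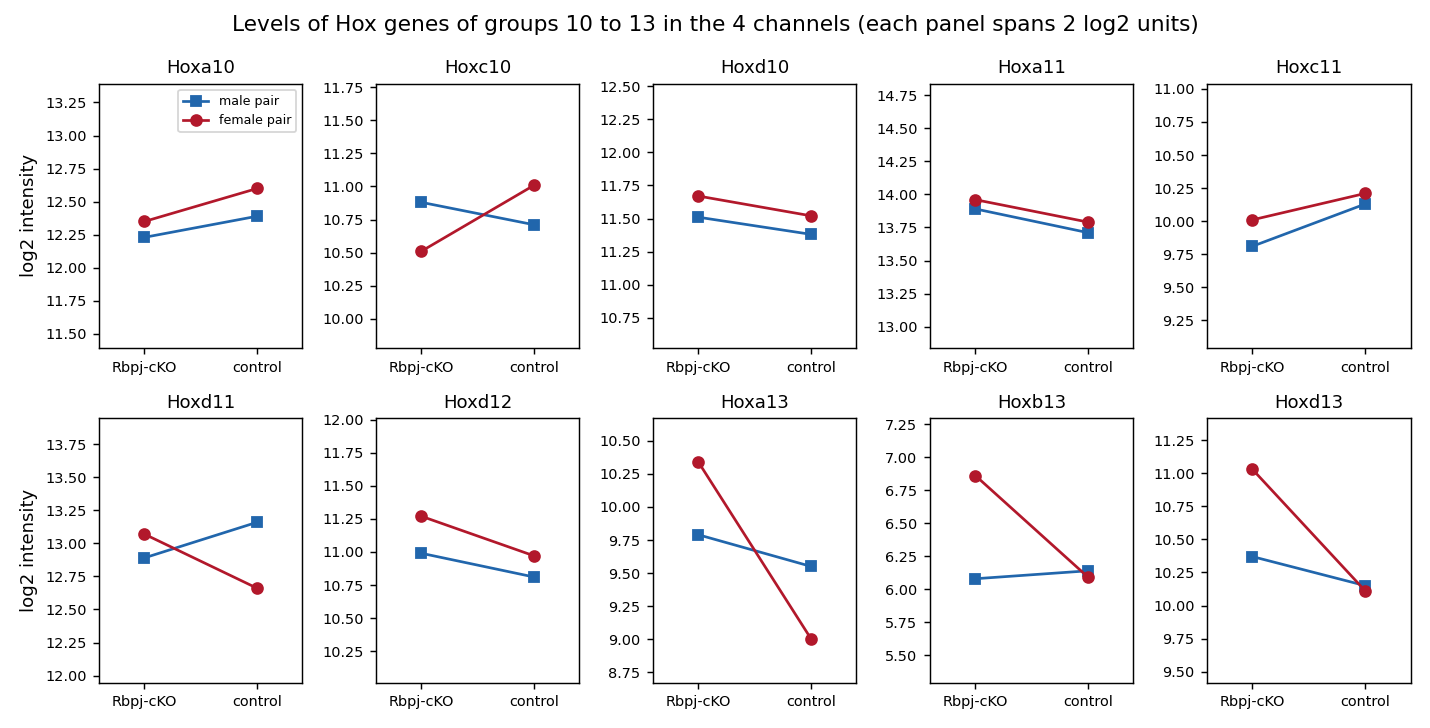
Log2 intensity of the brightest probe of 10 genes of groups 10 to 13 in Rbpj-cKO (left) and control (right), with squares for the male and circles for the female pair, a line joining the channels of an array, and 2 log2 units on every axis. Hoxa13 and Hoxd13 have steep lines in the female pair and shallow ones in the male pair, while the lines of Hoxa11, Hoxd12, Hoxd10, Hoxa10 and Hoxc11 run nearly parallel.

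Hoxb9 and Hoxb8, neighbours in the Hoxb cluster that pattern the thoracic skeleton and spinal cord, stood apart by their difference between the pairs. Hoxb9 (probe at mm9 chr11:96137748-96137807) had levels of 10.32 in male and 11.03 in female Rbpj-cKO, against 11.32 in male and 9.62 in female control. Its ratios were -1.0 and 1.41, or 2.0-fold lower and 2.66-fold higher, with spot SDs of 0.0589 and 0.0596. On both arrays the green channel was the brighter, as red over green was -1.0 and -1.41. Hoxb8 (probe at mm9 chr11:96146576-96146635) had 10.64 and 11.10 in Rbpj-cKO, against 11.94 and 11.04 in control, so that male control was high and the others lay between 10.64 and 11.10. Its ratios were -1.30 and 0.06, with a mean of -0.62 ± 0.96 (SD, n = 2; limma adjusted p = 1). Each gene has 1 probe, and the ratios of the other genes of group 9 were smaller in size than those of Hoxb9. Hoxa9, a gene of the trunk and of blood progenitors, had -0.16 and -0.07 by one probe and -0.11 and -0.20 by the other, while Hoxc9 had -0.12 and 0.19 and Hoxd9 0.23 and -0.25.

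Among the anterior genes, Hoxd4 and Hoxb2 differed most between the pairs. Hoxd4, which acts in the neck vertebrae, had levels of 12.60 and 13.28 in Rbpj-cKO, against 13.12 and 12.77 in control, with ratios of -0.51 and 0.51 and a mean of 0.00. Hoxb2, a gene of the hindbrain, had 11.14 and 11.61 in Rbpj-cKO, against 11.46 and 11.17 in control, with ratios of -0.32 and 0.44. In both genes red over green was below 0 on both arrays. For the 11 genes of groups 1 to 4 the median ratio was -0.12 in the male and 0.12 in the female pair. Opposite signs were found for 8 of the 11, a share near that of all genes (14150 of 20438).

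The genes that kept 1 sign without belonging to the posterior groups differed little. Hoxb4, with a role in blood stem cells, had 0.05 and 0.10, and Hoxd3 had 0.00 (above 0 before rounding) and 0.12. On the lower side Hoxa5, a regulator of lung development, had -0.08 and -0.01, Hoxc4 -0.04 and -0.09, and Hoxd8 -0.01 and -0.05. Hoxb5, Hoxb7 and Hoxc5 each had -0.01 and -0.03. Hoxb7, active in the ureteric bud, was among the closest between the genotypes, with levels of 13.01 and 13.04 in Rbpj-cKO against 13.02 and 13.07 in control. The genes of groups 5 to 8 had a median of -0.01 in the male and -0.03 in the female pair, with 5 of 11 lower and 0 higher on both arrays.

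The rest had opposite signs and ratios of at most 0.30 in size. Hoxa3 had -0.26 and 0.30, Hoxa2 -0.27 and 0.08, and Hoxc8 0.08 and -0.29. Hoxa4, Hoxa6, Hoxa7, Hoxb3, Hoxb6, Hoxc6 and Hoxd1 lay within these bounds. A dimmer Hoxb3 probe had 0.13 and -0.22, with signs opposite to the -0.05 and 0.12 of the brighter, while a dimmer Hoxa3 probe had -0.06 and 0.03. By cluster the medians of the male and the female pair were -0.12 and 0.08 for Hoxa, -0.03 and 0.08 for Hoxb, -0.04 and -0.09 for Hoxc, and 0.00 and 0.16 for Hoxd. In the Hoxd cluster 4 of 9 genes had both ratios above 0 and 1 had both below. In the Hoxc cluster these numbers were 0 and 3 of 7.

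Along the clusters, groups 9 to 13 had medians of 0.13 and 0.17, above those of groups 1 to 4 and 5 to 8 on both arrays. Both ratios were above 0 for 5 and below 0 for 3 of these 13 genes. The range within them was wide, from -0.26 for Hoxc11 to 0.80 for Hoxa13 in the mean of both arrays.

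**Figure D4:**
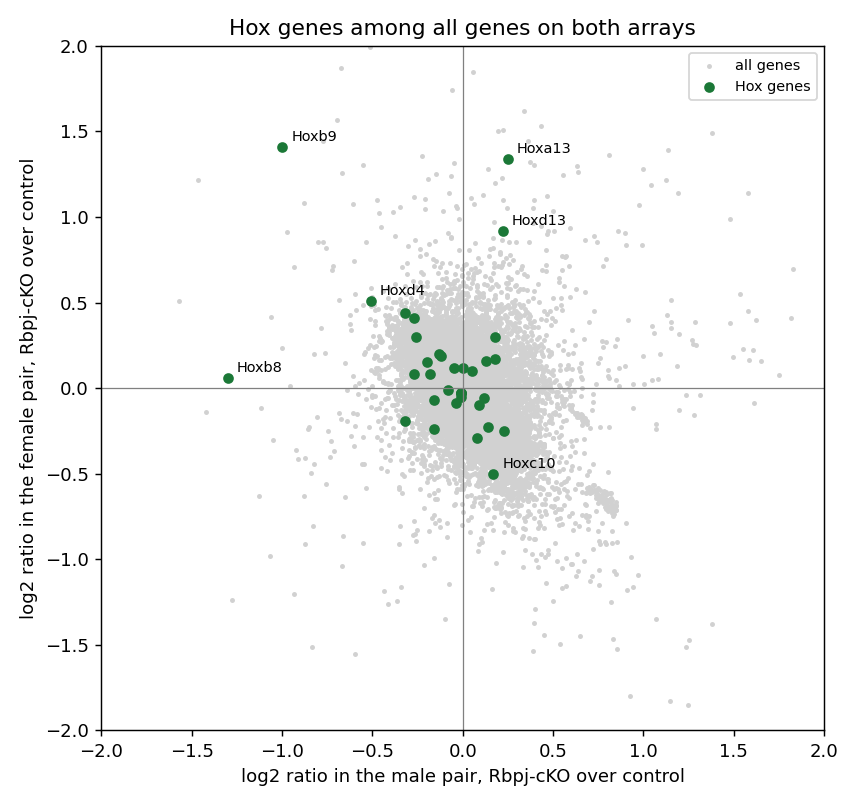
Log2 ratio of Rbpj-cKO over control in the male pair (x axis) against the female pair (y axis) for all genes past the filter (grey) and Hox genes (green), with 13 genes outside the plotted range. Hoxa13 and Hoxd13 lie high near the middle, Hoxb9 lies in the upper left and Hoxb8 on the left edge of the Hox genes, while most Hox genes lie within the grey mass.

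Across the 35 Hox genes the ratios of the 2 arrays had a correlation of -0.26, given as a description, beside -0.365 across all probes. The points share 2 arrays and their dye orientation. A dye difference common to both arrays would take opposite signs in the turned ratios, and its part in Hoxb9, Hoxb8 and Hoxd4 was not tested.

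HOX proteins bind DNA together with cofactors of the TALE homeodomain class, and all 9 of these genes passed the filter. Both ratios were above 0 for 1 and below 0 for 2 of them, the medians were -0.01 and -0.12, and 0 passed the test. Meis1, a cofactor made in the urogenital stroma, had -0.01 and -0.22. Pbx3 had 0.03 and -0.24, and Pbx4 -0.03 and -0.15. Both ratios were above 0 for 1 and below 0 for 4 of the 23 Polycomb, Trithorax and related chromatin regulators of the clusters, with medians of 0.01 and -0.05. Their mean ratios ran from -0.12 to 0.06.

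Of 16 upstream regulators of axial Hox expression, 11 passed the filter, 1 of them higher and 2 lower on both arrays. Cyp26a1, which breaks down retinoic acid, had levels of 8.07 and 8.17 in Rbpj-cKO, against 8.72 and 8.81 in control. The groups did not overlap, and the ratios were -0.65 and -0.64 (limma adjusted p = 1). The caudal genes Cdx1, Cdx2 and Cdx4, which activate posterior Hox genes in the early embryo, were not above background.

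Of 17 measured neighbours of the clusters and transcripts made within them, 4 had both ratios above 0 and 1 had both below, with medians of 0.00 and 0.07. Evx1, the homeobox gene next to Hoxa13, had levels of 8.28 in male and 9.61 in female Rbpj-cKO, against 8.22 in male and 7.77 in female control. Its ratios were 0.06 and 1.85, so that like Hoxa13 it was high in female Rbpj-cKO, and the control levels lay below both Rbpj-cKO levels. Evx2, at the corresponding place beside Hoxd13, had 0.07 and -0.04. Skap1, at the anterior end of the Hoxb cluster, had 0.03 and 0.54, and the antisense transcript Hoxaas3 -0.16 and 0.47. Hottip, a noncoding RNA made beside Hoxa13, was flagged on 0 spots in every channel. Hoxa11os, the antisense partner of Hoxa11, had -0.13 and 0.24, beside 0.18 and 0.17 for Hoxa11 itself. Evx2, Hottip and Hoxa11os were chosen after their values were seen.

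Among 16 genes that HOX11 or HOX13 proteins are known to act on or with in the urogenital tract, 4 had both ratios above 0 and 4 both below, with medians of -0.07 and 0.10. Wt1, a regulator of kidney and gonad, had 0.54 and 0.11, and Foxd1, of the renal stroma, had -0.21 and -0.23. Ret, the receptor of the ureteric bud, had levels of 8.96 and 9.76 in Rbpj-cKO, against 9.47 and 7.77 in control, and ratios of -0.51 and 1.99. Wnt5a had 0.07 and 0.36. Six2 and Gdnf, targets of the group 11 proteins in the metanephric mesenchyme, had -1.57 and 0.51, and -0.80 and 0.85, and were chosen after their values were seen. Their opposite signs are those of Hoxb9, while Eya1 of the same list, also chosen after its values were seen, had 0.85 and -0.69. Opposite signs were found for 8 of the 16 genes, and for 14150 of all 20438 genes. Of the list, 0 genes passed the test.

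Markers of further cell types also differed between the channels. Beside the high Hoxa13 and Hoxd13 of female Rbpj-cKO, 3 of 6 limb and body wall markers had both ratios above 0 and 0 both below, with medians of -0.09 and 0.38. Their summed level was 13.79 and 13.90 in Rbpj-cKO, against 13.70 and 13.65 in control. Most of that sum came from Prrx1, with 13.42 and 13.45 in Rbpj-cKO against 13.28 and 13.33 in control. Prrx1 had ratios of 0.14 and 0.13, and Lbx1 had 0.16 and 0.07, neither larger in the female pair. Hand2, a gene of limb bud and autonomic neurons, had 0.55 and 1.24, while the hindlimb genes Tbx4, chosen after its values were seen, and Pitx1 had -0.94 and 0.71, and -0.76 and 0.21. Of 12 neural crest and neuron markers, 9 had both ratios above 0 and 0 both below, with medians of 0.48 and 0.83 and summed levels of 16.71 and 15.30 in Rbpj-cKO against 15.02 and 14.38 in control. The granin gene Chga had 2.11 and 0.95, and Dbh, of noradrenaline synthesis, had 1.83 and 0.70, both larger in the male pair. Phox2a, of autonomic neurons, had 0.64 and 1.26, larger in the female pair as for Hoxa13, and the glial gene Fabp7 had 0.63 and 0.58. No marker of the 2 lists was at background in all channels, and their part in the Hox ratios was not tested.

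Muscle and blood markers went the other way between the pairs. The 11 measured skeletal muscle genes had medians of 0.63 and -0.97, with summed levels of 14.35 and 13.26 in Rbpj-cKO against 13.28 and 14.84 in control, and Myf5 was at background. The 7 erythroid genes had medians of 0.75 and -0.79, with summed levels of 19.08 and 17.99 in Rbpj-cKO against 18.24 and 18.96 in control. Those signs are opposite to those of Hoxb9, and their part in it was not tested. The 7 measured nephron markers had medians of -0.13 and 0.11, with summed levels of 13.98 and 14.09 in Rbpj-cKO against 13.95 and 13.99 in control, and Umod and Slc12a1 were not detected. Medians were -0.17 and -0.13 for 4 renal stroma genes, 0.03 and -0.22 for 5 gonad and adrenal genes, and 0.04 and -0.14 for 5 cartilage genes. They were 0.11 and -0.03 for 5 endothelial and 0.48 and 0.04 for 5 macrophage genes.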

How the data were processed

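RNA of Rbpj-cKO and control ureters was measured on 2 arrays, each holding both genotypes. Each spot's mean and background intensity, and the scanner software's processed intensity, were deposited on a linear scale, per the file headers. The submitters' processing notes name the software as Agilent Feature Extraction 10.7.3.1. Other values deposited per spot are flags of 0 or 1, which mark outlying, saturated and clearly detected spots, per the file headers. The authors' deposited series table holds 1 signed score per probe and array, read as a fold change (r of its log2 with the ratios 0.907 and 0.927). No source used here says how it was made, so it served as an alternative only.

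In limma 3.58.1 (R 4.3.3), spots were corrected by normexp with an offset of 50, and ratios were normalized by loess within arrays, where the 17263 control spots had weight 0. Outlier spots (3.57% on the male and 3.9% on the female array) were left out, 0 spots were saturated, and the 4 spots of a probe were averaged. Ratios of replicate 2, the female pair, were turned in sign. Levels are log2 intensities after loess and Aquantile. The filter kept probes of which, on each array, 1 or both channels had at least 2 spots flagged well above background, and the brightest probe stood for a gene. Mean ratios were tested against 0 with lmFit and eBayes (two-sided, Benjamini-Hochberg over 26980 probes, 1 residual and 6.19 prior degrees of freedom). The number of arrays limits the precision; the median SD over the spots of a probe was 0.0412 and 0.0551. The procedure was run on simulated spots with known shifts, where the arrays varied independently. The real ratios ran opposite ways between the arrays, so that run does not show how many real differences the test would find.

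Named genes are those of groups 10, 11 and 13, up to 8 higher and 8 lower with the largest mean ratio and 1 sign, up to 4 with the largest difference between arrays, and any gene whose probes had mean ratios of opposite sign at least 0.3 apart. At most 4 genes of each other list, those with the smallest p, were named, and others were chosen after their values were seen. Some genes are counted but not reported by name here. The Hox genes and all lists were chosen with earlier results of these data known. The alternatives changed the background correction, the normalization, the filter, the outlier spots, the dye orientation, the arrays included, the probe that stands for a gene, the moderation of the variance and the source of the ratios.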

Additional observations from a re-analysis of the deposited data

Results flagged for a closer look

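The ratios of Hoxb9 had opposite signs in the pairs of different sex, and the female minus the male log2 ratio was 2.41 (1.41 and -1.0). With 1 array per sex the difference was not tested. The probe of Hoxb13, which fell short of the filter and entered no test, had a log2 ratio of 0.77 in the female pair and -0.06 in the male pair. It was well above background on 3 of 4 spots in female Rbpj-cKO and on 0 in both control channels.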

How the results depend on the processing

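The count of Hox probes past the limma test was 0 under every alternative with 2 arrays that was run. With processed signals, median centring, other filters, outlier spots kept or the mean over a gene's probes, the counts of 7 genes higher and 9 lower on both arrays, the count of 0 genes at least 1.5-fold the same way and the median of -0.01 stayed within 1.5 times or the spread of the arrays. By the values that the authors deposited, 5 genes were lower on both arrays and the median was 0.02. With 1 array left there is no test. Leaving out 1 array gave 13 to 20 genes higher, 15 to 22 lower, 2 to 3 at least 1.5-fold different and a median of -0.04 to 0.08. Reading red over green on both arrays sets control over Rbpj-cKO in the female pair. A genotype difference shared by the arrays then cancels in the mean, while a difference that goes with dye or sex stays. This reading gave 1 gene at least 1.5-fold the same way.

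Of 210 values of named genes under alternatives, 21 had the other sign, over 16 genes. Of these, 15 came from red over green on both arrays, which is no estimate of Rbpj-cKO over control. With red over green on both arrays the means were -0.55 for Hoxa13, -0.35 for Hoxd13, -0.06 for Hoxd12, -0.34 for Hoxd11, 0.04 for Hoxa10, 0.34 for Hoxc10, -0.01 for Hoxd10, -1.21 for Hoxb9, -0.38 for Hoxb2, -0.02 for Hoxb4, -0.06 for Hoxd3, 0.03 for Hoxc4, 0.02 for Hoxd8, 0.01 for Hoxb7 and 0.01 for Hoxb5. Hoxb5 had 0.02 in the authors' deposited table. Leaving out 1 array gave -0.50 to 0.17 for Hoxc10, -0.27 to 0.41 for Hoxd11 and -1.0 to 1.41 for Hoxb9. It gave -1.30 to 0.06 for Hoxb8 and -0.32 to 0.44 for Hoxb2. Hoxd4 ran from -0.51 to 0.51 in the same way, but is not among the 21 because its mean over both arrays was 0.00. Each ratio already pairs the genotypes within an array, so no further block was fitted.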
